A study of Macaca mulatta with 102 samples.

Results

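Milk fat of rhesus macaques (Macaca mulatta) was compared between day 30 and day 90 of lactation. Samples were chosen by their labels: those with the tissue type Fat, from the animals sampled on both days. This gave 8 of the 34 samples in the series, from 4 of its 6 animals (M1, M2, M3 and M6), with 4 samples per day and 3 technical runs per sample. The other 2 animals, M4 and M5, had milk fat from day 90 only, because the study judged their day 30 milk fat RNA to be of insufficient quality. RNA integrity of the 8 samples used is not given by sample in the text of the study. Whether it differed between the days is therefore unknown here. The mothers were prime-aged, had given birth several times, lived in an outdoor breeding colony and nursed male infants. Both groups shared sedation, oxytocin to release the milk, a few hours of milk accumulation, and hand milking, and differed by time after birth. They also differed in what came before the milking. Each animal had 1 mammary biopsy just after a milking, on day 30 in M3 and M6 and on day 90 in M1 and M2, so that only the day 90 milk of M3 and M6 followed a biopsy. Biopsied mothers were then kept indoors until the site had healed. Of the 6 animals, 1 that the study does not name developed mastitis, which antibiotics resolved. Some mothers, which the methods do not name, were also milked repeatedly on a day between. The series also holds milk cells of the same milkings, mammary biopsies and cell-free milk.

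Milk fat is secreted as globules that the luminal epithelial cell wraps in its own membrane on release. Some globules carry away a crescent of cytoplasm, and these crescents are held to be the main source of RNA in the fat layer, beside whole cells that float with the fat. The fraction is therefore used as a view of the milk-producing cell that needs no biopsy. Perilipin 2, encoded by PLIN2, coats the lipid droplets within that cell. The caseins, alpha-lactalbumin and lactoglobulin are the main proteins it secretes.

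The values analysed were FPKM, the fragments of a transcript scaled to its length and to the mapped reads of the library, for 42701 Ensembl transcripts. FPKM give no read counts, so the depth of a sample is unknown in reads and the counting error of each value could not be given. Relative depth, estimated from the spacing of low FPKM and set to 1 in the median milk fat sample, was 1.56, 0.888, 1.06 and 0.710 at day 30 in M1, M2, M3 and M6, and 1.01 to 1.04 at day 90 in M1, M2 and M3 and 0.995 in M6. The day 30 sample of M6 stood apart. It was the shallowest, 2 of its 3 runs were closest by Spearman correlation to a run of the day 90 sample of M6, and the other 28 of the 30 milk fat runs were closest to a run of their own sample. Results that rest on M6 are given with and without it. PLIN2, as the sum of 4 transcripts, had 26029 to 311416 FPKM in the 10 milk fat samples. It had 2467 to 7263 FPKM in the 12 milk cell samples and 1309 to 2355 FPKM in the 6 biopsies, with no overlap. These transcripts were tied to PLIN2 by their mean FPKM in the same fractions, so the values do not check the fraction label independently.

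Few transcripts passed the threshold for a difference between the days. With limma, fitted with animal as a block to log2(scaled FPKM + 1), 4 of 12662 transcripts passed a Benjamini-Hochberg adjusted p of 0.05, which is 0.0316% of those tested. Of these, 2 were higher and 2 lower at day 90. The 3-fold limit that the study used left 1 transcript, which fell (0.0079%). In milk fat the study itself reported a longer list of genes between these days. It used counts per gene and another test, so the counts are not comparable. At an unadjusted p under 0.05 the count was 1705 transcripts, or 13.5%: 9.22% were higher and 4.25% lower at day 90. The 4 animals had the same direction in 1704 transcripts that were higher (13.5%) and in 1128 that were lower (8.91%). The median log2 change over all transcripts was 0.02, the median absolute log2 change was 0.12, and 127 transcripts had a log2 change over 1 in either direction.

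FPKM were scaled by a median-of-ratios factor per sample, from 0.849 to 1.43, before the fit, which took in transcripts whose FPKM averaged 1 or more over the 8 samples. In FPKM as deposited the median log2 change of all transcripts was -0.13, a shift of -0.14, and 0 transcripts were higher and 5 lower, so the split between directions rests on the scaling. All 4 transcripts lost the adjusted p when any of the 4 animals was left out, with adjusted p from 0.113 to 0.381. Without the animal as a block, 0 transcripts passed and 4.98% had an unadjusted p under 0.05.

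The only transcript past both limits was ENSMMUT00000052115, a locus of 74 bases on chromosome 20 (19244230 to 19244304 of rheMac2) that overlaps no other transcript. Its scaled FPKM were 230, 170, 53.6 and 564 at day 30 in M1, M2, M3 and M6, and 51.0, 23.0, 11.6 and 85.8 at day 90. It was lower at day 90 in each of the 4 animals, although the groups overlapped, since M6 at day 90 lay above M3 at day 30. It fell by 2.45 on the log2 scale (standard error 0.15, limma adjusted p = 0.0406), a 5.47-fold change. Its technical runs disagreed, with a standard deviation between runs of 1.67 on the log2 scale, above that of 99.6% of the transcripts tested. The 85.8 of M6 at day 90 was the mean of runs at 0, 5.81 and 252. With the median of the 3 runs in place of the mean the log2 change was -3.27 (limma adjusted p = 0.235).

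The other transcript that fell was ENSMMUT00000038845 on chromosome 19 (6593063 to 6602393), a locus of 9330 bases with no overlap. It had 18.3, 26.1, 18.3 and 13.6 scaled FPKM at day 30 and 7.48, 10.6, 6.08 and 5.38 at day 90, in the same order of animals. The lowest day 30 sample lay above the highest day 90 sample, as it did in 1.17% of the transcripts tested. It fell by 1.26 on the log2 scale (standard error 0.08, limma adjusted p = 0.0406), and its runs differed by a standard deviation of 0.12. M4 and M5, which were not in the fit, had 4.62 and 5.05 at day 90, below all day 30 samples. Its neighbour at 6569476 to 6584485, which ends 8578 bases before it, did not pass the threshold, with a log2 change of -1.23 (limma adjusted p = 0.0628). The neighbour had 25.1, 41.7, 27.6 and 21.7 scaled FPKM at day 30 and 11.3, 20.3, 9.91 and 7.44 at day 90, also without overlap. It is given here because of its place, after its values were seen. The other 4 tested transcripts within 50 kb had log2 changes of 0.17, 0.41, 0.17 and -0.03.

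Of the transcripts that rose, ENSMMUT00000031130 on chromosome 19 (41613097 to 41617053) was the more even between runs. Its scaled FPKM were 109.8, 95.1, 100.4 and 94.0 at day 30 and 215, 173, 189.9 and 192 at day 90. The groups did not overlap, which held for 1.88% of the transcripts tested in this direction. The log2 change was 0.94 (standard error 0.07, limma adjusted p = 0.0478), with a standard deviation between runs of 0.13. At day 90 M4 had 213 and M5 had 111, the latter close to the highest day 30 sample.

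ENSMMUT00000050516, a locus of 112 bases on chromosome 8 (100736279 to 100736391), had 40.7, 40.2, 48.9 and 47.0 scaled FPKM at day 30 and 87.4, 75.2, 109.3 and 94.4 at day 90. The groups did not overlap, and M4 and M5 at day 90 had 72.8 and 94.5. It rose by 1.03 on the log2 scale (standard error 0.08, limma adjusted p = 0.0478). Its 3 runs were less even than its animals, with a standard deviation between runs of 1.01 on the log2 scale, where the median over all transcripts was 0.15. No gene name was paired with any of these 4 identifiers at hand.

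**Figure D1:**
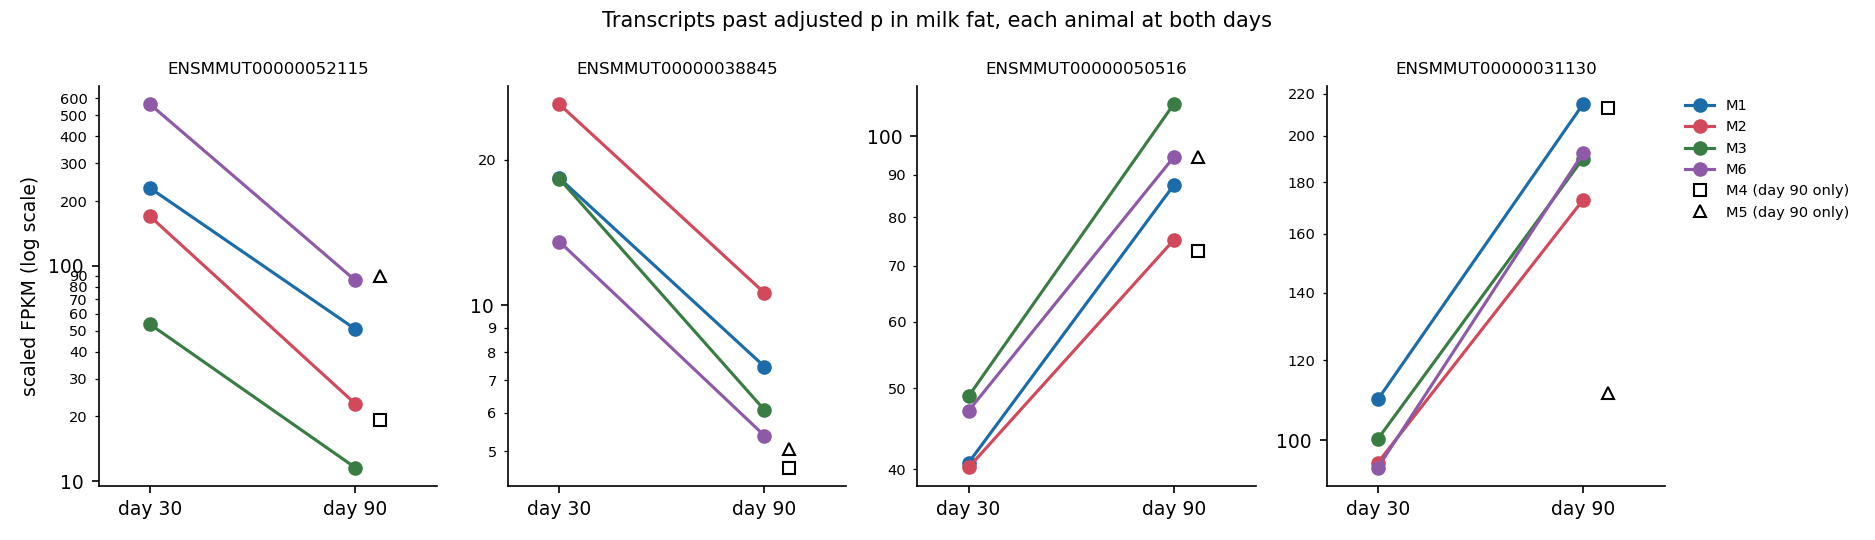
Scaled FPKM (log scale) of the 4 transcripts past an adjusted p of 0.05, with a line for each of the 4 animals from day 30 to day 90 and open symbols for M4 and M5, which have day 90 only. All 4 lines run in one direction in each panel, and in the first panel the 4 animals span a wider range at day 30 than the change between the days.

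The named transcripts analysed were 35: 29 transcripts of 25 genes and 6 short non-coding RNAs. Of these, 8 were tied to a gene by an identifier in the study and 27 by the closest mean FPKM in its tables, which matched within 1.55% for coding transcripts and within 24.2% for the non-coding ones, so the latter names are less certain. Several loci named in this way are short, such as TPT1 with 519 bases and ATP5J2 with 267 bases, and reads of near-identical copies elsewhere in the genome cannot be told apart from theirs. None of the 35 passed an adjusted p of 0.05, where the lowest was 0.211. At an unadjusted p under 0.05, 6 were higher and 2 lower at day 90, where 9.22% and 4.25% of all transcripts were.

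Transcripts of secreted milk proteins had higher values at day 90 in most animals, without passing the adjusted p. The list of milk proteins held 15 genes, of which 8 had an identifier, and 7 of these were higher and 1 was lower. By limma 0 of the 8 passed the adjusted p and 3 had an unadjusted p under 0.05 (CSN3, LYZ and LTF). The direction was the same in all 4 animals for 6 of the 8, against 13.5% of all transcripts. Their median log2 change was 0.47, where that of all transcripts was 0.02. FPKM are relative to the mapped reads of a sample, so less RNA from one kind of cell and less of that RNA per cell cannot be told apart here.

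LTF encodes lactoferrin, the iron-binding protein of milk with antimicrobial activity. Its scaled FPKM were 3203, 1520, 2599 and 2717 at day 30 and 4805, 2666, 4399 and 3624 at day 90. Every animal was higher at day 90, by 1.33-fold in M6 to 1.75-fold in M2, while the groups overlapped because M2 was low on both days. The log2 change was 0.64 (standard error 0.12, limma unadjusted p = 0.0017, adjusted p = 0.211), the lowest p among the named transcripts. Its range over the 19 alternatives was 0.46 to 0.83.

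The main CSN2 transcript was the most abundant of the named transcripts. It encodes beta-casein (chromosome 5, 59676470 to 59680187) and had 219849, 139352, 245298 and 292752 scaled FPKM at day 30 and 297599, 205367, 424981 and 364850 at day 90. All 4 animals were higher at day 90 and the order of the animals was nearly kept, with M2 lowest on both days. The log2 change was 0.53 (standard error 0.29, limma adjusted p = 0.502), and that of a second, overlapping CSN2 transcript was 0.41 (standard error 0.19). For the main transcript the changes of the 4 animals were 0.32 to 0.79, with a standard deviation of 0.20. Its limma adjusted p was 0.263 when the variance trend was left out of the fit. CSN3, which encodes the kappa-casein that keeps casein micelles dispersed, had 30332, 23200, 45555 and 44402 at day 30 and 49512, 39833, 73039 and 49944 at day 90. Its log2 change was 0.58 (standard error 0.20, limma adjusted p = 0.307), and M6 moved least, by 0.17.

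As a share of summed FPKM as deposited, CSN2 and CSN3 together took 30.4%, 24.6%, 25.5% and 29.7% at day 30 and 37.5%, 28.1%, 41.3% and 42.4% at day 90. The share was higher at day 90 in 4 of 4 animals, by 9.81 ± 5.50 percentage points (SD of the differences, n = 4). The two-sided exact sign-flip permutation test gave p = 0.13 (0.50 adjusted over the 4 shares tested), which is the smallest p that 4 animals allow. At day 90 M4 and M5 had 36.0% and 42.0%.

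The whey protein transcripts did not pass the adjusted p either. LALBA encodes alpha-lactalbumin, the regulatory subunit of lactose synthase, and had 79176, 66532, 130579 and 76523 scaled FPKM at day 30 and 116283, 118253, 131411 and 84434 at day 90. M1 and M2 were much higher at day 90, while M3 was nearly level with a ratio of 1.01, and in FPKM as deposited M3 had 117250 at day 30 and 111510 at day 90. LGB2, a lactoglobulin transcript, had 55106, 48060, 74188 and 65946 at day 30 and 82723, 78439, 83785 and 75145 at day 90. Its groups did not overlap, as in 1.88% of the transcripts tested in this direction. LYZ, the antibacterial lysozyme, had 32608, 18005, 35332 and 35292 at day 30 and 46581, 29622, 59733 and 38076 at day 90. The log2 changes were 0.38 for LALBA, 0.41 for LGB2 and 0.52 for LYZ, with limma adjusted p of 0.589, 0.497 and 0.341. In contrast, GLYCAM1, a mucin-like glycoprotein of milk, was higher at day 90 in M1 and M2 and lower in M3 and M6, with a log2 change of -0.08 (standard error 0.24). SPP1, which encodes osteopontin, was also higher in M1 and M2 and lower in M3 and M6 (log2 change 0.14, standard error 0.17). M3 and M6 were the animals biopsied on day 30, and the part of the biopsy in these values was not tested.

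**Figure D2:**
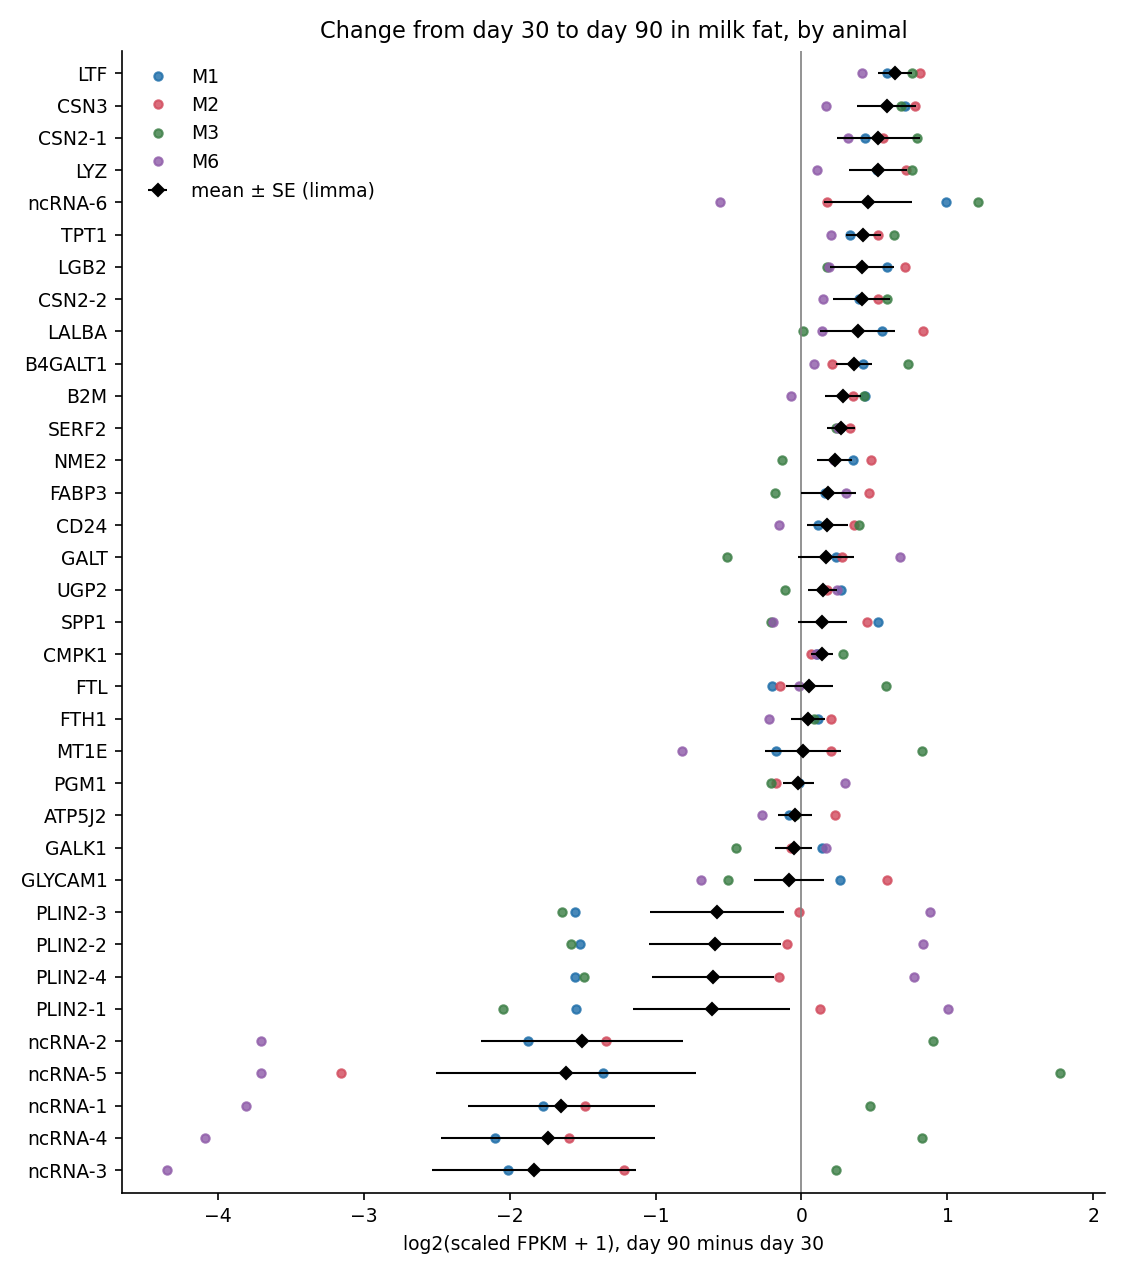
Change in log2(scaled FPKM + 1) from day 30 to day 90 (day 90 minus day 30) for the 35 named transcripts, with coloured points for the 4 animals and black diamonds for the limma estimate ± standard error. Points of LTF, CSN3, LYZ, LGB2, LALBA and the 2 CSN2 transcripts all lie above 0, while those of PLIN2 and of ncRNA-1 to ncRNA-5 spread to both sides.

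Lactose is made in the Golgi from UDP-galactose and glucose by B4GALT1 together with alpha-lactalbumin. The other genes of the list encode enzymes and transporters that handle sugars and nucleotides. Of the 15 genes, 8 were analysed, and 6 were higher and 2 lower at day 90, with a median log2 change of 0.16. By limma 0 passed the adjusted p, 1 had an unadjusted p under 0.05, and 3 were higher in 4 of 4 animals. Over all transcripts 13.5% had an unadjusted p under 0.05 and 13.5% were higher in 4 of 4 animals. B4GALT1, the catalytic subunit, was the one past the unadjusted p. It had 215, 155, 162 and 247 scaled FPKM at day 30 and 288, 179, 269 and 262 at day 90. The log2 change was 0.36 (standard error 0.12, limma adjusted p = 0.304), with the largest change in M3 at 0.73 and the smallest in M6 at 0.08.

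UGP2, which makes UDP-glucose, had a log2 change of 0.14 (standard error 0.10) and was higher in M1, M2 and M6. CMPK1, a nucleotide kinase, changed by 0.14 (standard error 0.07) and was higher in 4 of 4 animals. NME2, another nucleotide kinase, changed by 0.23 (standard error 0.12) and was higher in all but M3. PGM1, GALT and GALK1 had log2 changes between -0.05 and 0.17. The directions of UGP2, CMPK1, PGM1 and GALK1 changed sign under at least 1 of the 19 alternatives.

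The lipid droplet coat PLIN2 varied more between animals than any other named gene and had no common direction. The sum of the 4 transcripts named PLIN2 was 133114, 71127, 346817 and 42935 scaled FPKM at day 30 and 45904, 71784, 102390 and 79984 at day 90. It was lower at day 90 in M1 and M3, level in M2 and higher in M6. As a share of summed FPKM it went from 13.6% to 4.22% in M1, from 9.10% to 7.02% in M2, from 26.3% to 7.48% in M3 and from 3.23% to 7.07% in M6. The mean difference was -6.61 ± 9.77 percentage points (SD, n = 4, exact sign-flip permutation p = 0.375, adjusted p = 0.500). It was -2.55 points without M3 and -10.1 points without M6. The day 90 shares of these 4 animals lay between 4.22% and 7.48%, while the day 30 shares covered 3.23% to 26.3%. At day 90 M4 and M5 had 8.63% and 2.30%.

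The 4 PLIN2 transcripts, from chromosomes 14 and 15, had like changes in M1, M3 and M6 and were near level in M2, with mean log2 changes of -0.61 to -0.58 and standard errors of 0.42 to 0.54 (limma adjusted p of 0.604 to 0.693). They lie at 4 separate loci, and whether all are transcripts of the PLIN2 gene was not tested. Reads of near-identical copies cannot be told apart, so the like changes may not be independent. Without M6 the log2 change of the most abundant one (chromosome 15, 57864460 to 57866618) was -1.15, and without M3 it was -0.14. Of the 17 genes in the list of milk fat globule components, only PLIN2 and FABP3 had an identifier. FABP3, the fatty acid binding protein of milk-producing cells, had 25384, 30704, 38517 and 27208 scaled FPKM at day 30 and 28340, 42257, 33886 and 33611 at day 90. It was higher in M1, M2 and M6 and lower in M3 (log2 change 0.18, standard error 0.19, limma adjusted p = 0.739).

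Short non-coding RNAs took a large and uneven share of summed FPKM at day 30. The sum of the 6 named ones was 5.30%, 5.73%, 1.21% and 25.7% of summed FPKM at day 30 in M1, M2, M3 and M6, and 1.41%, 1.61%, 1.85% and 2.07% at day 90. The value of M6 at day 30 was far above the others, that of M3 was the lowest of the 8, and the day 90 samples were close to each other. M4 and M5 at day 90 had 2.04% and 1.19%. One of the most abundant, ncRNA-2 (chromosome 19, 22999704 to 22999795), had 15107, 11852, 4375 and 88268 scaled FPKM at day 30 and 4128, 4685, 8152 and 6784 at day 90. Of these, ncRNA-1 to ncRNA-5 had log2 changes of -1.83 to -1.50 with standard errors of 0.64 to 0.89, and each was lower in M1, M2 and M6 and higher in M3. By limma 2 of the 6 were lower at an unadjusted p under 0.05, where 4.25% of all transcripts were, and 0 passed the adjusted p (lowest 0.344). Without M6 the log2 changes of ncRNA-1 to ncRNA-5 were -0.996 to -0.771, and without M3 they were -2.74 to -2.30. ncRNA-6 had a log2 change of 0.45 (standard error 0.30).

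Loci shorter than the 100-base reads, 2191 in the file, took 5.92%, 6.35%, 1.33% and 27.1% of summed FPKM at day 30 and 1.63%, 1.88%, 1.99% and 2.24% at day 90. The mean difference was -8.23 ± 11.3 percentage points (SD, n = 4), with an exact sign-flip permutation p of 0.25 (adjusted p = 0.500), and -2.70 points without M6. These loci lie in the same total as the caseins. With them left out of the total, the casein share was higher at day 90 by 6.81 points, again in 4 of 4 animals. The libraries were selected for poly(A) RNA. For the non-coding RNAs among its most abundant transcripts, the study reported homology to human ribosomal RNAs from a sequence search. What the short loci contain was not tested here. FPKM divide by length, so for loci shorter than a read a share of summed FPKM need not be a share of the RNA.

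**Figure D3:**
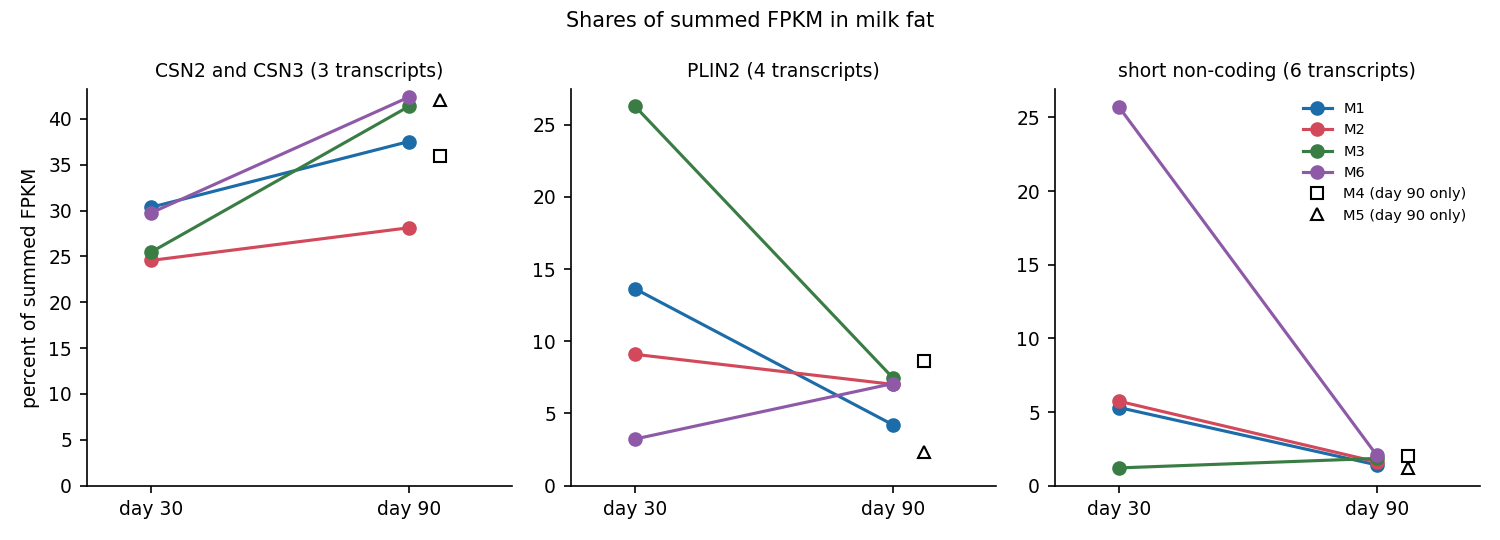
Percent of summed FPKM taken by CSN2 and CSN3, by PLIN2 and by the 6 named short non-coding RNAs in each milk fat sample, with a line per animal from day 30 to day 90 and open symbols for M4 and M5. The casein lines all go up, the PLIN2 lines cross, and M6 at day 30 stands alone in the last panel at 25.7%.

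Among the other named genes, TPT1, the translationally controlled tumour protein that most cells express strongly, had 2534, 2221, 2625 and 2312 scaled FPKM at day 30 and 3196, 3197, 4079 and 2654 at day 90. These groups did not overlap, as in 1.88% of the transcripts tested in this direction. In FPKM as deposited they did, since M6 had 2643 at day 90 and M1 and M2 had 3002 and 3175 at day 30. The log2 change of TPT1 was 0.42 (standard error 0.12, limma unadjusted p = 0.0126, adjusted p = 0.252). SERF2, a small protein expressed in most tissues, was the most even between animals. It went from 2377 to 2853 scaled FPKM in M1, from 2972 to 3502 in M3 and from 2444 to 2904 in M6, with log2 changes of 0.24 to 0.33 in the 4 animals (limma adjusted p = 0.325). ATP5J2, a subunit of the mitochondrial ATP synthase, changed by -0.04. B2M, the light chain of MHC class I, had a log2 change of 0.29 (standard error 0.12) and was higher in all animals except M6. CD24, a surface antigen of luminal cells and of some immune cells, had a log2 change of 0.18 (standard error 0.14) and was likewise lower only in M6.

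The iron storage proteins and metallothionein were nearly level on average. FTH1 and FTL, the heavy and light chains of ferritin, had log2 changes of 0.04 and 0.05 (standard errors 0.12 and 0.16). FTL was higher only in M3, from 2506 to 3747 scaled FPKM. MT1E, a zinc- and copper-binding metallothionein, went from 1031 to 1828 in M3 and from 2481 to 1408 in M6, and its mean log2 change was 0.01 (standard error 0.26). Of the 28 lists of genes considered for this tissue, 19 held no gene with an identifier and were not analysed here, among them the lists of immune cells, of stroma and of basal epithelium. Whether the share of such cells moved with the day was therefore not tested.

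The day change also differed with the span of the locus. Transcripts of 200 to under 1000 bases were higher at day 90 in 70.5% of 901 cases, with a median log2 change of 0.13, and 212 were higher and 33 lower at an unadjusted p under 0.05, together 27.2%. For the 11400 transcripts of 1000 bases to 300 kb the corresponding values were 53.2%, 0.01, 932, 485 and 12.4%. The median change of the class of 200 to under 1000 bases was above 0 in each animal, at 0.16 in M1, 0.21 in M2, 0.05 in M3 and 0.11 in M6. In FPKM as deposited it was -0.02, against -0.13 for the class of 1000 bases to 300 kb. In milk cells of the same animals the median log2 change was -0.30 for loci of 200 to under 1000 bases and -0.01 for those of 1000 bases to 300 kb. The 69 transcripts under 100 bases had a median absolute log2 change of 0.98 and the 155 of 100 to under 200 bases one of 0.62, against 0.12 for those of 1000 bases to 300 kb. Their runs differed by medians of 1.25 and 1.09 on the log2 scale, against 0.14. Of the 34 transcripts with a change over 3-fold, whatever their p, 25 were under 200 bases, although only 224 of the transcripts tested were that short.

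**Figure D4:**
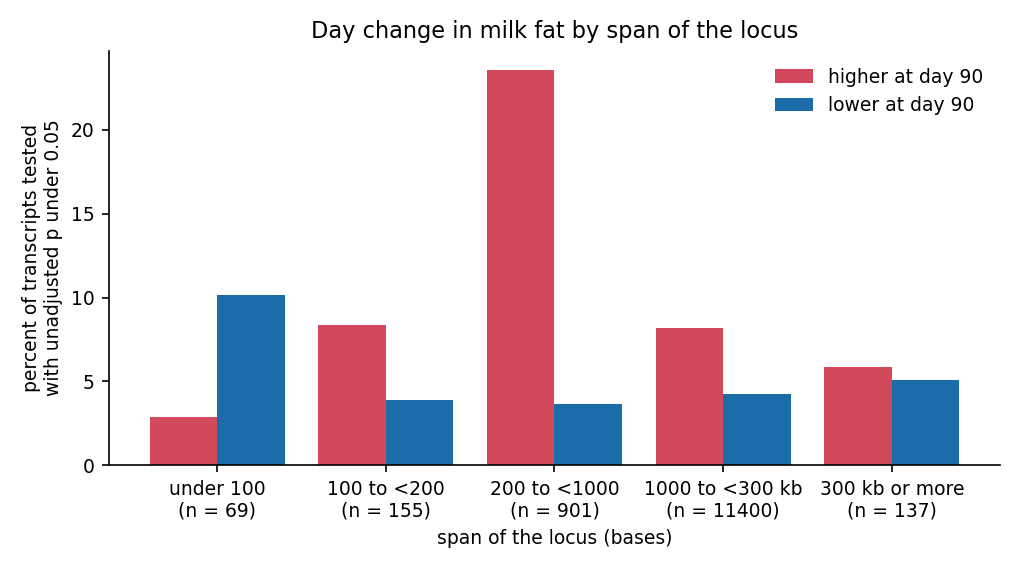
Percent of the transcripts tested that had an unadjusted p under 0.05 in milk fat, split by direction, for 5 classes of locus span, with bars that start at 0 and the number tested under each class. The class of 200 to under 1000 bases has the highest bar, for transcripts higher at day 90.

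Samples were closer by animal than by day. The Spearman correlation over all transcripts between the days of one animal was 0.937 to 0.940, and each day 30 sample was closest to the day 90 sample of its own animal (4 of 4). Between day 30 of one animal and day 90 of another it was 0.916 to 0.932 in the 12 pairs, with a mean of 0.925. The mean within animals was higher by 0.0133 and was the largest of the 24 assignments of day 90 samples to animals (one-sided exact permutation p = 0.0417, the smallest possible). For different animals on the same day the mean correlation was 0.926 over the 6 pairs of day 30 and 0.927 over the 6 pairs of day 90. The transcripts that passed the filter had a median standard deviation of 0.25 between animals within a day and of 0.23 between the day changes of animals, on the log2 scale, and a median standard deviation of 0.15 between technical runs.

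The day changes of M1, M2 and M6 were weakly correlated over the 12662 transcripts, with Pearson r of 0.32 for M1 and M2, 0.21 for M1 and M6 and 0.17 for M2 and M6. Those of M3 were close to 0 with the others (0.05, 0.02 and -0.02). These values describe 4 animals. The first number of the sample titles was taken as the sequencing pool, which the labels do not state. By this reading M1 and M2 shared a pool, M3 and M6 each had another, and both days of an animal were in the same one. Without M3, 19.4% of transcripts had an unadjusted p under 0.05, the highest share of the 4 fits that each leave out an animal, and 0 passed the adjusted p.

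The milk cells of the same 4 animals were used to ask whether the day change is shared by the cells in the same milk. The study described milk cells as a mixture of immune and epithelial cells. Which of these carried a change in milk cells was not tested. In milk cells 1 of 13749 transcripts passed an adjusted p of 0.05 by limma (0.00727%), and 28.7% had an unadjusted p under 0.05. The standard deviation of the day change over the 11953 transcripts tested in both was 0.40, 0.42, 0.48 and 0.45 in milk fat and 0.53, 0.62, 0.49 and 0.68 in milk cells of M1, M2, M3 and M6. Milk fat had the smaller value in each of the 4 animals (exact sign-flip permutation p = 0.13, the smallest possible).

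The difference between the day change in milk fat and that in milk cells was tested as an interaction with limma over 13455 transcripts. None passed the adjusted p (0%), while 3692, or 27.4%, had an unadjusted p under 0.05, and 16.4% of all did so with the milk fat change above the milk cell change. Of the 25 named genes, 13 had an unadjusted p under 0.05 and in all 13 the change was higher in milk fat. TPT1 had the lowest p: its log2 change was 0.42 in milk fat and -0.37 in milk cells, and the interaction estimate was 0.81 (limma unadjusted p = 0.00146, adjusted p = 0.0880). The interaction fit scaled both fractions together, while the single changes were scaled by fraction, so the estimate is not exactly their difference. SERF2 changed by 0.27 in milk fat and by -0.45 in milk cells. Both TPT1 (519 bases) and SERF2 (801 bases) belong to the class of 200 to under 1000 bases. The median log2 change of that class was 0.13 in milk fat and -0.30 in milk cells. Whether the 2 genes differ from their class was not tested. FABP3 changed by 0.18 in milk fat and by -0.44 in milk cells, and NME2 by 0.23 and -0.38.

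LTF and B4GALT1 were higher at day 90 in 4 of 4 animals in both fractions, without passing the adjusted p in either. LTF changed by 1.08 in milk cells (standard error 0.26) and by 0.64 in milk fat, and B4GALT1 by 0.92 (standard error 0.18) and 0.36, and the differences between the fractions did not pass the threshold (limma adjusted p = 0.401 and 0.254). For the 4 transcripts past the threshold in milk fat, the changes in milk cells were small or uneven: 0.11 (standard error 0.85) for ENSMMUT00000052115, -0.10 (0.36) for ENSMMUT00000038845, -0.11 (0.25) for ENSMMUT00000050516 and 0.24 (0.13) for ENSMMUT00000031130. Their differences from milk fat had limma adjusted p of 0.0880 to 0.156. The count of this test depended on M3 and on the setting. Without it 1343 transcripts passed, 670 with the higher change in milk fat and 673 with the lower, and TPT1, SERF2 and NME2 were among them, while without M1, M2 or M6 the count was 0. It was 349 with animal by fraction as the only block and 564 when only transcripts averaging 5 FPKM or more were tested, with TPT1 and SERF2 among them in both.

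**Figure D5:**
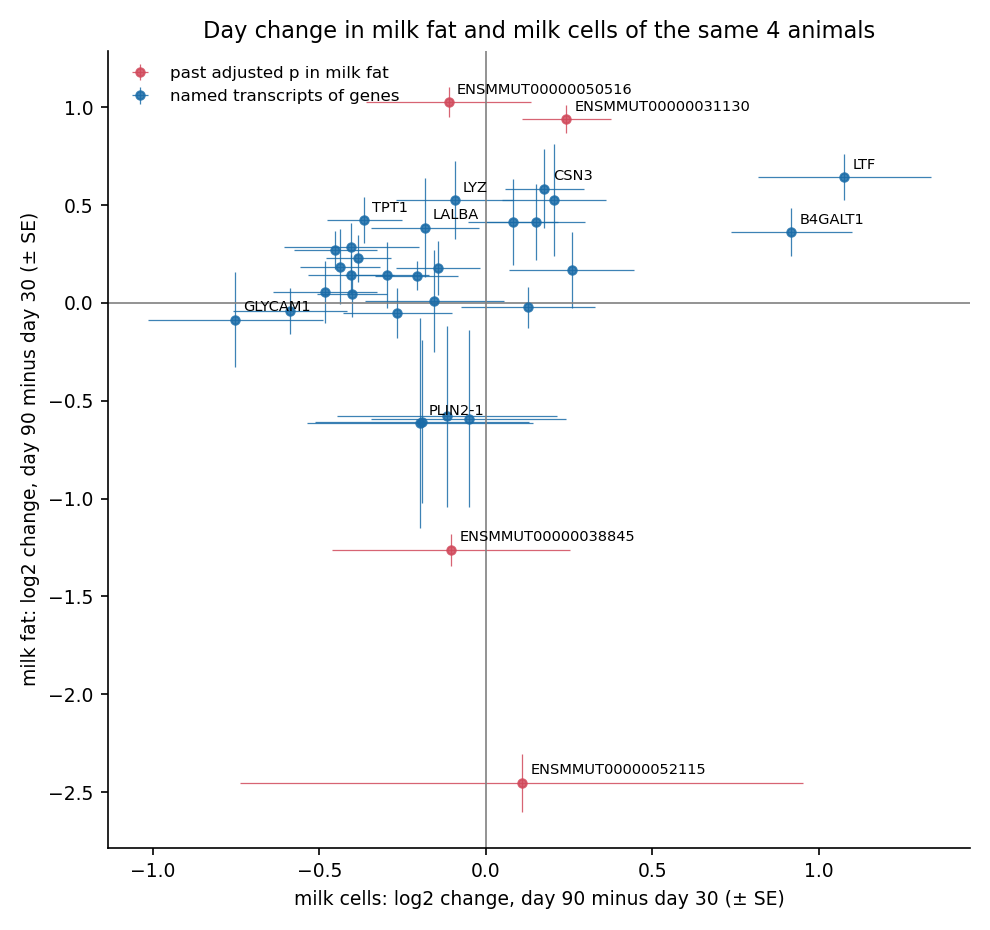
Log2 change from day 30 to day 90 in milk fat (vertical) against that in milk cells (horizontal) of the same 4 animals, with standard errors, for the 29 named transcripts of genes (blue) and the 4 transcripts past the threshold in milk fat (red). LTF and B4GALT1 lie to the right with positive changes in both, and the 4 red points lie far from 0 in milk fat, with changes of -0.11 to 0.24 in milk cells.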

How the data were processed

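RNA from the fat layer of centrifuged milk was sequenced from poly(A) libraries as single 100-base reads. The authors trimmed these reads, aligned them to the rheMac2 assembly by TopHat and Bowtie, and obtained FPKM for Ensembl transcripts from Cufflinks. Versions of these tools are not given in the sources used here. These deposited FPKM divide reads between overlapping transcripts. The file also held 6 columns that match no sample described and were not used. The 3 runs of a sample were averaged as FPKM, and 0 of 435 pairs of milk fat runs were identical.

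The factors that scaled each sample came from medians of ratios, taken over 22829 transcripts that none of the 10 milk fat samples listed at 0. The log2 values, after 1 was added, were fitted two-sided in R 4.3.3 (limma 3.58.1). The prior variance followed a trend and animal was a block. Benjamini-Hochberg adjustment covered the transcripts with an average of 1 FPKM or more. The fit was tested on simulated data. A transcript was called at an adjusted p under 0.05 and a change over 3-fold. Pairing came from the animal labels: the days of an animal deviated together from their group means (correlations of 0.305 to 0.631, other pairs -0.42 to 0.13, one-sided exact permutation p = 0.0417). Shares were tested by exact sign-flip permutation over animals. Python 3.11.15 with numpy 2.4.6, pandas 2.3.3 and matplotlib 3.10.9 was used. Transcripts were named where the study pairs a gene with an identifier or table values, and 0 identifiers matched the reference tables, so at most 2 unnamed transcripts in each direction are given. The rule also named the 10 transcripts with the lowest p in each direction among those with a mean FPKM of at least 10 and 1 direction in 4 animals. Apart from the 4 given, these passed no threshold and had no name. The transcripts and gene lists were chosen with earlier results of these data known. The study counted reads per gene for its own tests, and such counts were not used here. A gene of the lactose synthesis list is not reported here.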

Additional observations from a re-analysis of the deposited data

Results flagged for a closer look

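In 92 groups of samples, the levels of the transcripts described and sums over them at each day, 8 had a sample far from the others for its group, and chance alone gives about 1 in 20. At day 30, M6 was the highest for ncRNA-1 (84356 scaled FPKM, others 5645 to 16624), ncRNA-2 (88268, others 4375 to 15107), ncRNA-3 (103355, others 3047 to 7681) and ncRNA-5 (23109, others 331 to 4052). These 4 flags come from 1 library, the shallowest of the day 30 samples. Without it the log2 changes of these transcripts were -0.996 to -0.771, against -1.83 to -1.50 with it. At day 30, M2 was the lowest for LYZ, with 18005 scaled FPKM where the others had 32608 to 35332, and M3 was the highest for ATP5J2, with 2049 where the others had 1762 to 1778. At day 90, M4, which has no day 30 sample and entered no paired comparison, was the highest for MT1E (3884, others 1057 to 1828) and for FTH1 (5704, others 2843 to 3523).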

How the results depend on the processing

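The fit had animal as a block. Without this replicate block, by limma, 0 transcripts passed either limit, with the 8 paired samples as well as with all 10 samples unpaired. The count was also 0 for both limits without the filter on low FPKM (31553 transcripts), without the trend, with run 1 alone, with the median of the 3 runs, with loci under 200 bases left out, and without any of the 4 animals (0 to 0). In these fits 4.98% to 19.4% of transcripts had an unadjusted p under 0.05. The count past both limits was 2 in FPKM as deposited, with a mean FPKM of at least 5 and with FPKM summed over overlapping loci. The adjusted p alone was passed by 30 with animal as a random effect over 10 samples, by 13 with a mean FPKM of at least 5 and by 25 with summed loci. In the interaction with milk cells 349 passed with animal by fraction as the only block and 564 with a mean FPKM of at least 5, and 0 to 1343 when 1 animal was left out. The cause of these moves was not tested.

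The correlation within animals exceeded that between animals by 0.00967 to 0.0153 when 1 animal was left out, where 3 animals cannot give a p below 0.167. The share of the 20 highest transcripts, -0.56 points at day 90 (exact sign-flip permutation p = 0.63), became 1.71 points without loci under 100 bases in the total, and ranged from -1.61 to 0.32 with 1 animal left out. The named transcripts stayed on their side of the threshold in all 656 alternative values, and 22 of these, from 10 transcripts, changed sign. The 4 transcripts past the threshold kept their direction in 74 of 74 and an adjusted p under 0.05 in 30.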

Other observations

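M4 and M5 were not paired, and their milk fat values at day 90 are given as levels only. B4GALT1 had 106 scaled FPKM in M4, below the 8 paired samples, and 298 in M5, above them. UGP2 had 332 in M4 and 504 in M5, both below the 597 to 1109 of the paired samples. CMPK1 had 32.1 and 34.8, below their 48.3 to 61.4. LTF had 4164 in M4 and 7632 in M5, the latter above the highest paired sample. LGB2 had 117975 in M4 and 98506 in M5, both above the 48060 to 83785 of the paired samples. SPP1 had 1271 in M4 and 737 in M5, where the paired samples ranged from 1256 to 2603.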
